A study of Mus musculus with 30 samples.

Results

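ATP-binding cassette (ABC) transporters and organic anion transporting polypeptides were followed in mouse liver under 3 amounts of dietary iron and in 2 inbred strains. The genes were taken by name: every non-control probe of the array whose gene name begins with Abca, Abcb, Abcc, Abcd, Abce, Abcf, Abcg or Slco, leaving out Abcc4, Abcb11, Abcg5, Abcg8, Abcd2, Abcd3 and Slco1a1. This gave 100 probes of 57 genes among 41174 probes with 28786 gene names in all. Of these, 71 probes of 44 genes lay above background often enough to be tested, and 13 genes did not.

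The livers came from DBA/2 (D2) and C57BL/6 (B6) mice, labelled with no transgene or mutation, and each mouse was hybridised to its own single-colour oligonucleotide array. The deficient diet held less than 3 mg of iron per kg, the balanced diet 200 mg per kg and the enriched diet 8.3 g per kg. There were 5 mice in each of the 6 groups: D2 deficient, D2 balanced, D2 enriched, B6 deficient, B6 balanced and B6 enriched. The labels state neither sex, age nor how long the diets were fed. The comparisons ask which liver genes respond to iron lack and to iron load, and whether the strains differ in this.

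ABC proteins use the energy of ATP to move substrates across a membrane. In hepatocytes, members on the canalicular face send phospholipid, glutathione and glucuronide conjugates and drugs into bile, members on the sinusoidal face return conjugates to blood, and members in mitochondria, peroxisomes and lysosomes handle iron-sulphur and haem intermediates, fatty acids and vitamin B12. The Slco genes encode carriers that take bilirubin conjugates, bile acids, hormones and drugs up from blood. Transcription of several of these carriers is known to follow nuclear receptors such as CAR (Nr1i3) and PXR (Nr1i2) and the oxidant sensor Nrf2 (Nfe2l2).

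On single arrays, 63.1% to 78.8% of probes were well above background. The markers of hepatocytes that had a probe (7 of 8) were above background on all 30 arrays. The strains parted along the first principal component, with 40.8% of the variance. Arrays were scanned on 3 days, with 5, 11 and 14 arrays, and no day held equal numbers of each group, so values within a day are given beside the pooled ones. Day 1 held 1 B6 array and allowed comparisons of diets in D2 only, each against 1 balanced array, and days 2 and 3 compared groups of 1 to 4 arrays. The array of balanced D2 mouse 5 stood apart, with 299 outlier spots against 24 to 84 on the other arrays and a score of -56.4 on the second principal component against -42.3 to 40.7. It was the only balanced D2 array of day 3, so every day 3 value for a diet in D2 rests on it. Without it the deficient diet called 3 transporter genes in D2 in place of 6, and the difference between the strains' enrichment effects 4 in place of 2. Levels are log2 of the normalized signal. Differences are on the same scale, each with its standard error (SE) from limma, and adjusted p-values are limma's with Benjamini-Hochberg adjustment over 21071 genes, called below 0.05. The number of arrays limits the precision. In whole liver, fewer cells of a type and less RNA per cell cannot be told apart. Probe sequences were not at hand, and whether sequence variants between the strains alter a probe's signal was not tested.

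Slco1a4, an organic anion carrier of the sinusoidal membrane with bile acids, steroid conjugates and digoxin among its known substrates, had the largest strain difference of the 44 tested genes and changed on both altered diets. Its gene lies between Slco1b2 and Slco1a5 in a cluster of carriers, in the order Slco1c1, Slco1b2, Slco1a4, Slco1a6 and Slco1a5. The 250 bases before the annotated start of Slco1a4 are shown beside those before one of the starts of Slco1a5, because both genes were higher in iron-enriched B6 livers. The sequences are from RefSeq (build GRCm38.p6), 5′ to 3′, at chr6:141856221-141856470 and chr6:142278875-142279124, both on the minus strand, and capitals mark runs of at least 12 bases that the pair shares.
Slco1a4: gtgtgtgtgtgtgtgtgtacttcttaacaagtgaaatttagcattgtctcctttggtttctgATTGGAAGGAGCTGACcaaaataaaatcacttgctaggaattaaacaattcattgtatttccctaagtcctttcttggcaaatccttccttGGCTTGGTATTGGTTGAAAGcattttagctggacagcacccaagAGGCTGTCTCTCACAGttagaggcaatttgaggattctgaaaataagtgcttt
Slco1a5: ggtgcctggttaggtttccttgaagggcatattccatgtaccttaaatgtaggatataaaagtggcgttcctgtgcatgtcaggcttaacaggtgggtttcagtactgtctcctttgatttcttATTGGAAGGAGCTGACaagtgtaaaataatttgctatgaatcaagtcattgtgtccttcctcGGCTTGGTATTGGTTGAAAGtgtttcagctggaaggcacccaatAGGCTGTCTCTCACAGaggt
The pair shared 3 such runs with 52 bases in all, the longest of 20 bases. Of the 51 other transporter promoters set against that of Slco1a4, 3 shared any run of this length, and the other two had 18 and 14 such bases (Abcc10 and Slco1c1). The other listed promoter of Slco1a5 shared none, and which start the liver used was not measured. Slco1a4, Slco1a5 and Slco1a6 are also alike in their transcripts, and how far one gene's RNA binds the others' probes was not measured.

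In deficient D2 livers Slco1a4 had levels of 11.80, 12.67, 11.39, 11.58 and 11.60, in balanced D2 livers 10.75, 10.45, 10.16, 10.78 and 9.74, and in enriched D2 livers 10.52, 10.50, 9.99, 10.22 and 10.84. In deficient B6 livers it had 13.72, 13.26, 13.59, 13.08 and 12.97, in balanced B6 livers 12.73, 12.32, 12.60, 11.96 and 12.62, and in enriched B6 livers 13.77, 13.68, 13.69, 14.02 and 13.83. Every deficient mouse of either strain lay above every balanced mouse of its strain, every enriched B6 mouse did so too, and enriched and balanced D2 mice overlapped. Of all tested genes, 6.51% did not overlap between deficient and balanced D2 mice, 2.71% between deficient and balanced B6 mice and 5.74% between enriched and balanced B6 mice. Every D2 mouse lay below every B6 mouse on the same diet, which held for either direction in 20.6% of all tested genes on the deficient, 19.1% on the balanced and 27.7% on the enriched diet.

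On the deficient diet Slco1a4 was 2.70-fold higher in D2 (log2 1.43, SE 0.220, adjusted p = 0.000445) and 1.84-fold higher in B6 (log2 0.88, SE 0.220, adjusted p = 0.0345), and the mean over both strains was 1.15 (adjusted p = 3.81e-05). Within scan days the deficient D2 difference was 1.89, 1.14 and 1.85 and the deficient B6 difference 0.48 and 1.19 on days 2 and 3. On the enriched diet the difference was 0.04 in D2 (95% interval -0.41 to 0.49, adjusted p = 1) and 1.35 in B6, a 2.55-fold rise (adjusted p = 0.000273). The B6 rise was 0.94 on day 2 and 1.53 on day 3. The difference between the strains' enrichment effects, D2 minus B6, passed the test (log2 -1.31, SE 0.311, adjusted p = 0.0333), with -1.41 on day 2 and -0.76 on day 3, and passed within neither day. Leaving out 1 mouse at a time ended this call in 10 of 30 cases, and that of the deficient B6 rise in 7 of 30. Averaged over diets, Slco1a4 was 5.01-fold lower in D2 (log2 -2.32, SE 0.127, adjusted p = 1.03e-14), with -2.53 on day 2 and -2.59 on day 3.

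**Figure D1:**
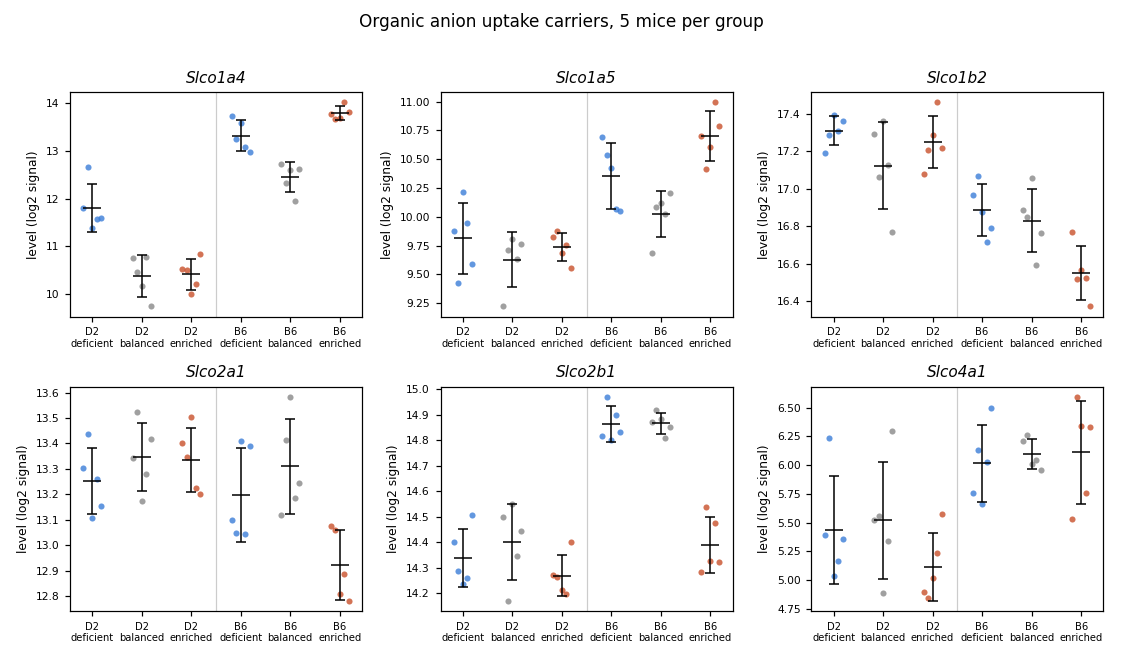
Levels (log2 normalized signal) of 6 organic anion uptake carriers in each mouse, with 5 mice per group, the mean as a horizontal mark and the SD as bars; each panel has its own axis, and the level of one gene cannot be set against another's. Slco1a4 averaged 11.81 in deficient D2 livers against 10.38 in balanced ones, while Slco2b1 averaged 14.39 in enriched B6 livers against 14.87 in balanced ones.

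Slco1a5, the neighbour with a similar range of substrates, had 10.70, 10.41, 10.60, 10.996 and 10.79 in enriched B6 livers, against 9.69, 10.09, 10.12, 10.02 and 10.20 in balanced B6 livers. The groups did not overlap, and the rise was 1.60-fold (log2 0.68, SE 0.147, adjusted p = 0.00504). In D2 livers the enriched difference was 0.11, and the difference between the strains' effects, -0.57, did not pass (adjusted p = 0.222). Averaged over diets Slco1a5 was lower in D2, with 15 of 15 mice below the B6 mean of their diet (log2 -0.63, adjusted p = 4.39e-07). The within-day values were 0.73 and 0.67 for enrichment in B6, and -0.42 and -0.61 for strain, on days 2 and 3.

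Slco2b1, an uptake carrier for steroid sulphates and statins, moved the other way on the enriched diet. It had 14.28, 14.54, 14.33, 14.48 and 14.32 in enriched B6 livers, against 14.87, 14.92, 14.88, 14.81 and 14.85 in balanced B6 livers, with no overlap. The fall was 1.39-fold (log2 -0.48, SE 0.070, adjusted p = 7.75e-05) and stood at -0.34 on day 2 and -0.51 on day 3. In D2 livers the difference was -0.13 (95% interval -0.28 to 0.01, adjusted p = 0.93). The difference between the strains' effects was 0.34 (adjusted p = 0.0917). Slco2b1 was also lower in D2 than in B6 averaged over diets (log2 -0.37, adjusted p = 1.31e-08).

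Slco2a1, the prostaglandin transporter, fell in enriched B6 livers to 13.08, 13.06, 12.81, 12.89 and 12.78, against 13.12, 13.41, 13.58, 13.19 and 13.25 in balanced B6 livers. The lowest balanced mouse lay just above the highest enriched one, the difference was -0.39 (SE 0.099, adjusted p = 0.0165), and within days 2 and 3 it was -0.06 and -0.39. The call ended without normalization (adjusted p = 0.175) and in a fit of enriched and balanced B6 arrays alone (adjusted p = 0.114). It held in 28 of 30 cases of leaving out 1 mouse. A second probe of Slco2a1, which lacked values on 6 arrays because of outlier marks, gave -0.35 for the same comparison and did not pass (adjusted p = 0.181 over probes). Its strain difference was -0.03, against 0.17 for the probe used (adjusted p = 0.0154), so the higher level of Slco2a1 in D2 rests on 1 of 2 probes.

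Slco1b2, the mouse relative of the main human hepatocyte carriers for bilirubin conjugates and bile acids, did not pass on either diet. The deficient differences were 0.19 in D2 and 0.05 in B6, and the enriched differences 0.13 in D2 and -0.28 in B6 (adjusted p from 0.108 to 0.996). Slco1b2 had 17.29, 17.06, 17.36, 17.13 and 16.77 in balanced D2 livers, against 16.89, 16.85, 17.06, 16.60 and 16.76 in balanced B6 livers, which overlapped. On the enriched diet it had 17.08, 17.21, 17.29, 17.46 and 17.22 in D2 livers, against 16.77, 16.52, 16.57, 16.52 and 16.37 in B6 livers, with no overlap. Over the 3 diets it was 1.39-fold higher in D2 (log2 0.47, SE 0.058, adjusted p = 1.12e-07), opposite in sign to its neighbours Slco1a4 and Slco1a5. Slco4a1, a carrier of thyroid hormone, was lower in D2 (log2 -0.72, adjusted p = 7.33e-05) at signals near the bottom of the scale, from 4.85 to 6.60 over all mice. Slco1c1 and Slco3a1 passed in no comparison.

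Of the 14 organic anion uptake genes 8 were tested. In enriched B6 livers 2 rose, 2 fell and 4 did not pass, with a median of 0.05, against a median of 0.03 over all tested genes. Of all tested genes 3.31% rose and 2.52% fell there. Averaged over diets 2 of the 8 were higher and 4 lower in D2, with a median of -0.21, against -0.01 over all tested genes. Of all tested genes 25.9% were higher and 24.2% lower in D2. Slco1a6 was above background on 6 arrays, 4 of enriched and 2 of deficient B6 livers. It was not tested, because a probe had to be above background on at least 3 arrays of each strain. Slco4c1, Slco5a1, Slco6b1, Slco6c1 and Slco6d1 were above background on at most 1 array.

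Among all the transporter genes, iron enrichment of B6 livers called 11 of 44, 7 higher and 4 lower, against 5.83% of all tested genes, 3.31% higher and 2.52% lower. Without normalization between arrays the split was 6 higher and 1 lower. Beside Slco1a4, Slco1a5, Slco2a1 and Slco2b1 these were Abcb1a, Abcd4, Abca5, Abcc3 and Abcc5, which were higher, and Abcb10 and Abcg2, which were lower. In D2 livers the same diet called 0 of 44 by limma, against 0.0902% of all tested genes (0.0712% higher and 0.019% lower), and 5 of 44 lay below an unadjusted p of 0.05, as did 1158 of the 21071 genes. The methods' t-test also called 0 after adjustment and had 6 at an unadjusted p below 0.05. The enrichment effects of Slco1a4 and Abcd4 differed between the strains by limma's interaction contrast, 2 of 44, both lower in D2, against 1.11% of all tested genes (0.427% higher and 0.683% lower). For the other 9 genes called in B6 that difference did not pass with the probe that stands for the gene, though a second probe of Abcg2 passed. The methods' t-test called 3 of 44 for this difference after adjustment.

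**Figure D2:**
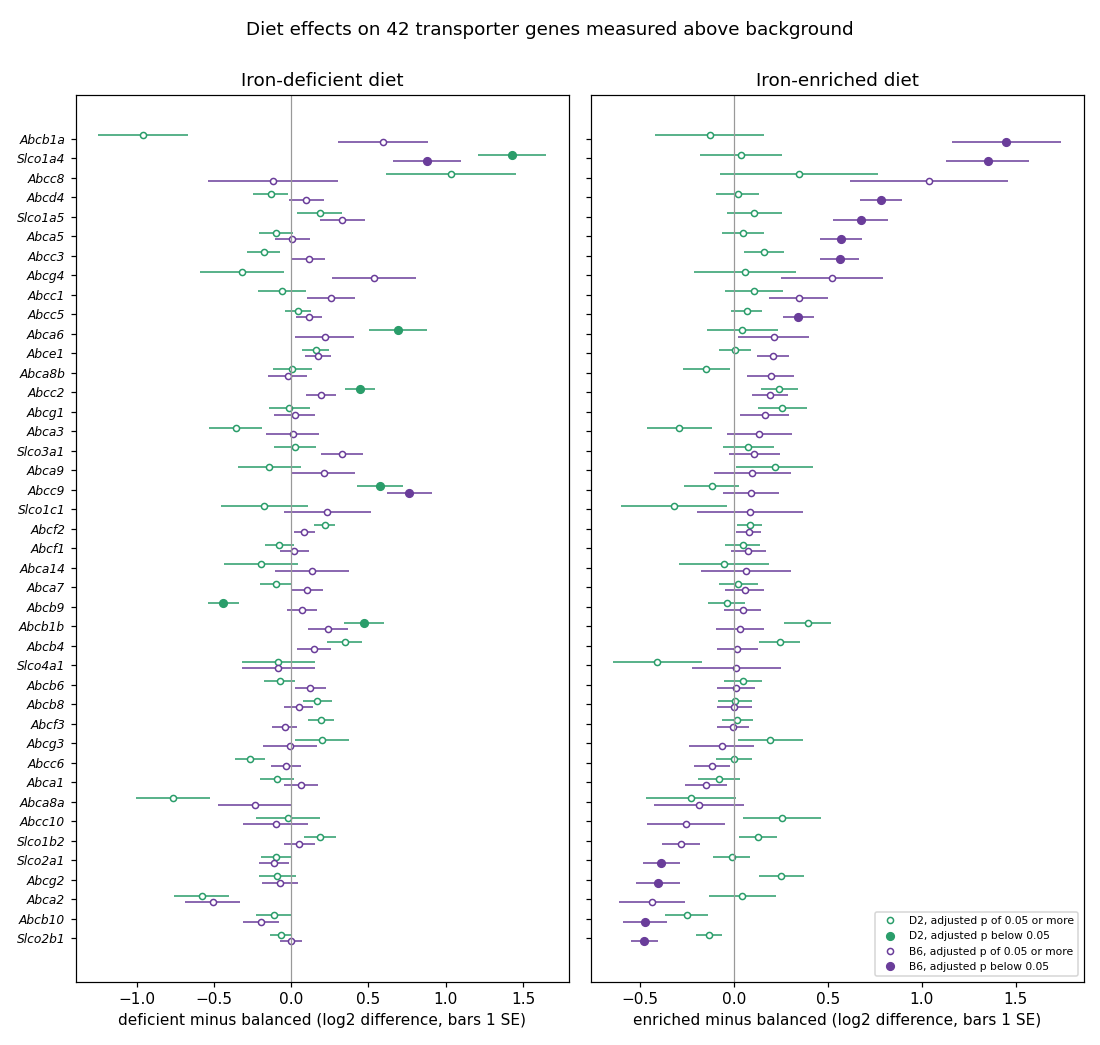
Differences on the deficient (left) and enriched (right) diet from the balanced diet for 42 of the 44 tested transporter genes, on a log2 scale, in D2 (green) and B6 (purple), with bars of 1 SE and filled points for an adjusted p below 0.05. The right panel has 11 filled points, all in B6, and the left panel has 6 in D2 and 2 in B6.

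Of the exporters of drugs and conjugates 9 of 10 genes were tested, and in enriched B6 livers 3 rose, 1 fell and 5 did not pass, with a median of 0.19. Over all tested genes 3.31% rose and 2.52% fell, with a median of 0.03. Abcc3, which returns glucuronide conjugates from hepatocytes to blood, had 14.75, 14.83, 14.65, 14.55 and 14.67 in enriched B6 livers, against 14.16, 14.33, 14.34, 13.72 and 14.08 in balanced B6 livers. The groups did not overlap, and Abcc3 was 1.48-fold higher (log2 0.56, SE 0.106, adjusted p = 0.00132), with 0.67 on day 2 and 0.61 on day 3. In D2 livers its difference was 0.16 (adjusted p = 0.974), and the mean of both strains was 0.36 (adjusted p = 0.00657). Abcc5, an exporter of cyclic nucleotides, had 8.83, 9.16, 8.94, 8.85 and 9.12 in enriched B6 livers, against 8.75, 8.74, 8.69, 8.41 and 8.59 in balanced B6 livers. Those groups did not overlap either, and the difference was 0.34 (adjusted p = 0.0115), 0.41 on day 2 and 0.36 on day 3, and its other probes gave 0.40 and 0.20 without passing. The Abcc5 call ended without normalization (adjusted p = 0.0801) and with the mean of its probes (adjusted p = 0.061). It also ended in a fit of enriched and balanced B6 arrays alone (adjusted p = 0.124).

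Abcb1a and Abcb1b encode the pair of P-glycoproteins of the mouse, exporters of drugs and steroids, lie side by side next to Abcb4, and are so alike that their probes' signals are uncertain as measures of one gene alone. Abcb1a had 7.72, 7.54, 6.75, 7.13 and 6.89 in enriched B6 livers, against 5.57, 6.14, 5.87, 5.75 and 5.44 in balanced B6 livers. It was 2.74-fold higher with no overlap (log2 1.45, SE 0.291, adjusted p = 0.00239), and the within-day values were 1.97 and 1.35. In D2 livers Abcb1a had 6.15, 6.14, 6.19, 6.01 and 7.09 on the enriched diet, against 7.01, 5.83, 7.02, 6.47 and 5.89 on the balanced diet, and these overlapped. The difference between the strains' effects was -1.58 and missed the threshold (95% interval -2.43 to -0.74, adjusted p = 0.0569). With the probe used, Abcb1b differed by 0.39 in D2 and 0.03 in B6 on the enriched diet and passed in neither (adjusted p = 0.535 and 0.945). A second Abcb1b probe averaged 6.94 in enriched B6 livers, against 6.37 in balanced B6 livers. In D2 livers that probe averaged 6.32 on the enriched diet, against 6.54 on the balanced diet, opposite in direction to the probe used.

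Abcg2, a canalicular exporter of urate, porphyrins and drugs, was the exporter that fell. It had 13.84, 13.99, 13.74, 13.67 and 13.85 in enriched B6 livers, against 14.25, 14.19, 14.32, 14.32 and 14.03 in balanced B6 livers, just short of overlap. The difference was -0.40 (SE 0.119, adjusted p = 0.042), with -0.26 and -0.41 on days 2 and 3, and a second probe gave -0.38 (adjusted p = 0.0505 over probes). Leaving out 1 mouse at a time ended the call in 8 of 30 cases. The call also ended with 75th percentile scaling (adjusted p = 0.0972) and without normalization (adjusted p = 0.217). In D2 livers Abcg2 differed by 0.25 (adjusted p = 0.881), and the difference between the strains, 0.66, missed the threshold (adjusted p = 0.0524), while the second probe gave 0.77 and passed (adjusted p = 0.0181 over probes).

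Abcd4, which helps to move vitamin B12 out of lysosomes, had 12.18, 12.34, 12.89, 12.19 and 12.28 in enriched B6 livers, against 11.73, 11.33, 11.41, 11.71 and 11.78 in balanced B6 livers. The groups did not overlap, and Abcd4 was 1.72-fold higher (log2 0.78, SE 0.114, adjusted p = 6.68e-05), with 0.61 and 0.78 on days 2 and 3. In D2 livers it had 11.34, 11.37, 11.37, 11.27 and 11.20 on the enriched diet, against 11.31, 11.41, 11.31, 11.25 and 11.15 on the balanced diet, which overlapped. The strains' effects differed by -0.76 (SE 0.161, adjusted p = 0.0173), by -0.59 and -0.57 within days 2 and 3, passing in neither, and with the slide as a block the adjusted p was 0.111. Averaged over diets Abcd4 was also lower in D2 (log2 -0.64, adjusted p = 4.65e-09), with the widest gap on the enriched diet. Mean levels in D2 and B6 were 11.16 and 11.69 on the deficient, 11.29 and 11.59 on the balanced and 11.31 and 12.38 on the enriched diet.

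Abca5, a lysosomal protein of cholesterol handling, was the member of the lipid and sterol group that rose on the enriched diet in B6, 1 of 13 tested genes of 19. Of all tested genes 3.31% rose there. Abca5 had 8.48, 8.93, 8.71, 8.79 and 8.75 in enriched B6 livers, against 8.23, 8.28, 8.31, 7.93 and 8.07 in balanced B6 livers, with no overlap. The difference was 0.57 (SE 0.110, adjusted p = 0.00165), 0.70 and 0.59 within days 2 and 3, and the other 3 probes gave 0.59, 0.64 and 0.46, of which the last did not pass. Its neighbour Abca6 differed by 0.21 in enriched B6 livers and did not pass. The cholesterol exporters Abca1 and Abcg1, which load HDL, differed by -0.15 and 0.16 in enriched B6 and by -0.08 and 0.26 in enriched D2 livers, with adjusted p from 0.563 to 1.

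The mitochondrial ABC transporters are the members closest to iron use, and 1 of the 4 changed on a diet. Abcb10, an inner membrane protein needed for haem synthesis in red cell precursors, had 8.78, 8.79, 8.18, 8.52 and 8.55 in enriched B6 livers, against 8.71, 8.96, 9.27, 9.101 and 9.14 in balanced B6 livers. These overlapped, and the difference was -0.47 (SE 0.116, adjusted p = 0.013), but 0.08 within scan day 2 and -0.56 within day 3. The call ended without normalization (adjusted p = 0.207) and with the mean of its probes (adjusted p = 0.893). Of 4 tested erythroid markers 1 was lower in enriched B6 livers (log2 -1.35) and differed between the strains' effects (log2 1.66), with summed levels of 14.65 to 15.14 in enriched B6 livers, against 14.97 to 15.77 in balanced B6 livers. The part of these cells in the Abcb10 difference was not tested. A second Abcb10 probe gave 0.38 in enriched B6 livers and 0.20 over both strains without passing, opposite in sign to -0.36 (adjusted p = 0.0141) for the probe used. Abcb6, a porphyrin transporter, and Abcb8 passed on neither diet. The 95% intervals of the enrichment effect ran from -0.16 to 0.25 for Abcb6 and from -0.18 to 0.20 for Abcb8 in D2, and from -0.20 to 0.22 for Abcb6 and from -0.19 to 0.19 for Abcb8 in B6.

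Sex-biased genes and a few markers of other cells were called in enriched B6 livers. Of 9 Kupffer, 8 stellate and 8 lymphocyte markers 0 were called, and of 7 tested hepatocyte markers 1 was higher and 1 lower. Of 10 genes known as male-biased in mouse liver, 8 were lower, and their summed level was 18.73 to 19.07 in enriched B6 livers, against 19.48 to 19.75 in balanced B6 livers. Of 10 tested female-biased genes 4 were higher, with summed levels of 19.48 to 19.73 in enriched B6 livers, against 18.30 to 19.26 in balanced B6 livers. In D2 livers the male-biased sums were 19.62 to 19.76 on the enriched diet, against 19.63 to 19.87 on the balanced diet. Of 10 sinusoidal endothelial markers 2 were higher in enriched B6 livers, Stab1 and Lyve1, with sums of 15.17 to 15.31, against 14.84 to 15.18 in balanced B6 livers. Of 7 cholangiocyte markers Krt19 was higher, with sums of 12.64 to 13.43 in enriched B6 livers, against 12.23 to 13.10 in balanced B6 livers. Their part in the transporter differences was not tested.

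The deficient diet called 7 of 44 transporter genes averaged over both strains, 6 higher and 1 lower, against 8.08% of all tested genes, 3.89% higher and 4.2% lower. The split was 4 higher and 2 lower with scaling to the 75th percentile, and 5 higher and 0 lower without normalization. In deficient D2 livers 6 were called, 5 higher and 1 lower, against 4.68% of all tested genes, 1.78% higher and 2.89% lower. In deficient B6 livers 2 were called, both higher, against 1.79% of all tested genes, 1.11% higher and 0.683% lower. In D2 the split was 3 higher and 2 lower with 75th percentile scaling, and 3 higher and 0 lower without normalization. The difference between the strains' deficiency effects called 0 of 44 by limma, against 0.019% of all tested genes, with 3 of 44 and 1500 of 21071 genes below an unadjusted p of 0.05, and the methods' t-test also called 0. Markers of sex-biased expression moved with the deficient diet too. In deficient B6 livers 2 of 10 male-biased genes were lower, with summed levels of 19.06 to 19.42, against 19.48 to 19.75 in balanced B6 livers, and these did not overlap. Of 10 female-biased genes 1 was higher there, with sums of 18.25 to 19.56 in deficient B6 livers, against 18.30 to 19.26 in balanced B6 livers. In D2 the male-biased sums were 19.56 to 19.85 in deficient livers, against 19.63 to 19.87 in balanced ones, with 1 gene higher. Of the erythroid markers 1 was lower in deficient B6 livers. Their part in the transporter differences was not tested. The enriched and the deficient comparison share their balanced mice. Averaged over strains, enrichment called 7 of 44 transporter genes, 5 higher and 2 lower, against 2.23% of all tested genes, 1.21% higher and 1.01% lower.

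Abcc9, the sulphonylurea receptor subunit of ATP-sensitive potassium channels and known as a gene of pericytes, was higher over both strains and was called in each. It had 9.90, 10.08, 9.27, 9.52 and 9.85 in deficient D2 livers, against 9.14, 9.33, 9.16, 9.30 and 8.80 in balanced D2 livers, with 1 deficient mouse below the highest balanced one. It had 9.49, 10.001, 9.94, 10.15 and 10.29 in deficient B6 livers, against 9.17, 9.15, 9.45, 9.24 and 9.02 in balanced B6 livers, and these did not overlap. Over both strains Abcc9 was 1.59-fold higher (log2 0.67, SE 0.105, adjusted p = 0.000221), and its other 2 probes gave 0.68 and 0.66 and passed, though in D2 alone neither did. Within days 2 and 3 the mean difference was 0.71 and 0.70, and 0.77 within day 1 in D2. The B6 call ended with the slide as a block (adjusted p = 0.117) and in a fit of deficient and balanced B6 arrays alone (adjusted p = 0.102). The D2 call ended in such a fit of D2 arrays (adjusted p = 0.11), with the mean of its probes (adjusted p = 0.0591) and in 4 of 30 cases of leaving out 1 mouse. On the enriched diet Abcc9 differed by -0.12 in D2 and 0.09 in B6. Of 8 stellate cell markers, Reln and Dcn were higher on the deficient diet over both strains (log2 0.51 and 0.48) and 6 did not pass, with a median of -0.05 and a lowest value of -0.81. The list's summed level was 14.94 to 15.28 in deficient D2 livers, against 13.94 to 15.30 in balanced D2 livers, and 15.05 to 15.40 in deficient B6 livers, against 14.61 to 15.10 in balanced B6 livers. Of 10 sinusoidal endothelial markers 3 were higher and 1 lower. The part of these cells in the Abcc9 difference was not tested. Abcc8, the other subunit gene of this kind, differed by 0.46 over both strains and did not pass (adjusted p = 0.409).

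**Figure D3:**
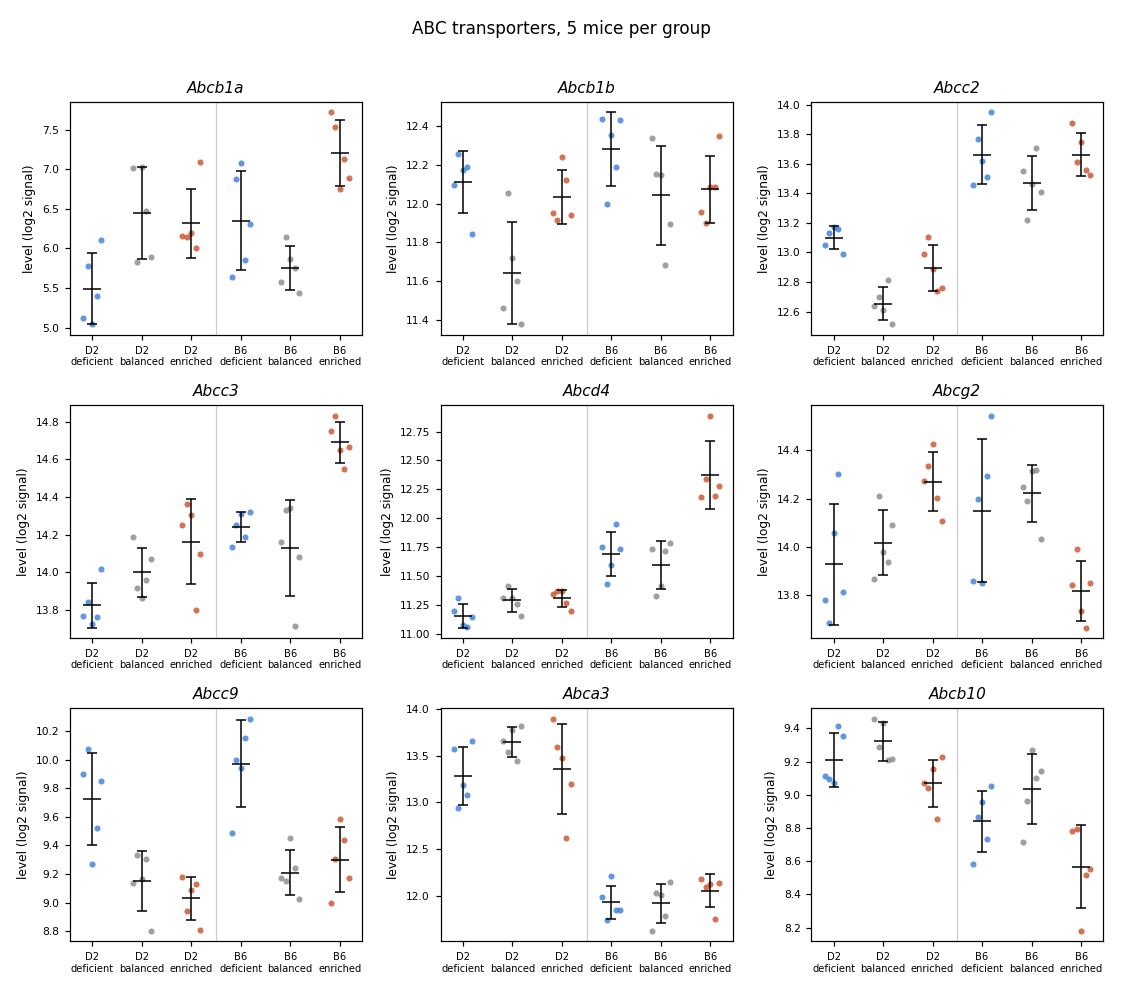
Levels (log2 normalized signal) of 9 ABC genes in each mouse, with 5 mice per group, the mean as a horizontal mark and the SD as bars; each panel has its own axis. Abcc9 averaged 9.97 in deficient B6 livers against 9.21 in balanced ones, and Abca3 averaged 13.65 in balanced D2 livers against 11.92 in balanced B6 livers.

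Abcc2, the canalicular exporter of glucuronide and glutathione conjugates, rose in deficient D2 livers. Its promoter is shown because it holds the core letters of an antioxidant response element, TGACNNNGC, the sequence through which Nrf2 acts. The sequence is that of the 250 bases before the start, 5′ to 3′, from RefSeq (build GRCm38.p6, chr19:43782058-43782307, plus strand), with the match in capitals.
Abcc2: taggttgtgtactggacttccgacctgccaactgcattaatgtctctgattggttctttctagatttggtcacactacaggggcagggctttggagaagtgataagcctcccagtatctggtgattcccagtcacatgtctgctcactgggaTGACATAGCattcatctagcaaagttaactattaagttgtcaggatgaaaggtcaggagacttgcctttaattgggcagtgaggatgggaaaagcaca
Read on both strands, these letters stood in 5 of the 52 listed promoters of 44 transporter genes, and in 10.2% of all 32851 promoters of this length. The matched letters of Abcc2 began 98 bases before the start. The other matches were in Abcc10, which passed in no comparison, and in Slco4c1, Slco6b1 and Slco6d1, which were not tested. A match of letters does not show binding.

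Abcc2 had 13.05, 13.13, 13.17, 13.16 and 12.99 in deficient D2 livers, against 12.64, 12.70, 12.61, 12.81 and 12.51 in balanced D2 livers. The groups did not overlap, and Abcc2 was 1.36-fold higher (log2 0.45, SE 0.097, adjusted p = 0.00834), with 0.32, 0.43 and 0.60 within the 3 scan days. In B6 livers it had 13.46, 13.77, 13.62, 13.51 and 13.95 on the deficient diet, against 13.55, 13.22, 13.46, 13.71 and 13.41 on the balanced diet, which overlapped (log2 0.19, adjusted p = 0.434). Over both strains the difference was 0.32 (adjusted p = 0.00416), and on the enriched diet it was 0.22 (adjusted p = 0.102). Abcc2 was 1.64-fold lower in D2 than in B6 over the 3 diets, without overlap on any of them (log2 -0.71, SE 0.056, adjusted p = 2.44e-11), with -0.75 and -0.69 on days 2 and 3.

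The P-glycoprotein gene Abcb1b had 12.10, 12.26, 12.17, 12.19 and 11.84 in deficient D2 livers, against 11.46, 12.05, 11.72, 11.60 and 11.38 in balanced D2 livers, with overlap. The difference was 0.47 (adjusted p = 0.0323), 0.24 in B6 (adjusted p = 0.467) and 0.35 over both strains (adjusted p = 0.0139). The D2 call ended in 7 of 30 cases of leaving out 1 mouse and under 7 of 13 other settings, among them 75th percentile scaling (adjusted p = 0.0534) and no normalization (adjusted p = 0.104). A second Abcb1b probe gave -0.37 in D2 and -0.10 over both strains without passing, so the rise rests on 1 of 2 measured probes. Abcb1a had 5.12, 5.77, 5.04, 5.40 and 6.11 in deficient D2 livers, against 7.01, 5.83, 7.02, 6.47 and 5.89 in balanced D2 livers, with overlap, and the difference of -0.96 just missed the threshold (adjusted p = 0.0569). In B6 the deficient difference of Abcb1a was 0.60 (adjusted p = 0.399), and the difference between the strains' effects was -1.55 (adjusted p = 0.36). Abcb4, which moves phosphatidylcholine into bile, differed by 0.25 over both strains (adjusted p = 0.051). A second Abcb4 probe averaged 12.75 in deficient D2 livers, against 12.08 in balanced ones, and 13.00 in deficient B6 livers, against 12.73 in balanced ones. Of the 9 tested exporters 2 rose on the deficient diet over both strains, Abcb1b and Abcc2, against 3.89% of all tested genes, and 7 did not pass.

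Abca6, a neighbour of Abca5 and Abca9, had 12.83, 13.64, 13.00, 12.78 and 12.41 in deficient D2 livers, against 12.44, 12.60, 11.81, 12.42 and 11.93 in balanced D2 livers. These overlapped, the difference was 0.69 (adjusted p = 0.0333), and its second probe gave 0.42 and passed. The call ended with the slide as a block (adjusted p = 0.0825), with 75th percentile scaling (adjusted p = 0.0543), in a fit of deficient and balanced D2 arrays alone (adjusted p = 0.177) and in 5 of 30 cases of leaving out 1 mouse. Within the 3 scan days the D2 difference was 1.22, 0.31 and 0.99. Abca2, an endosomal lipid transporter, was the gene that fell over both strains. It had 8.71, 8.77, 8.03, 8.32 and 8.63 in deficient D2 livers, against 9.00, 9.21, 9.18, 8.90 and 9.08 in balanced D2 livers, and these did not overlap. In B6 livers it had 8.84, 8.21, 9.17, 8.57 and 8.59 on the deficient diet, against 9.30, 9.29, 9.59, 8.61 and 9.105 on the balanced diet, which did. The mean difference was -0.54 (SE 0.125, adjusted p = 0.00688), -0.59 within both day 2 and day 3, and a second probe gave -0.58.

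Abcb9, a lysosomal peptide transporter, fell in deficient D2 livers to 9.64, 9.57, 9.59, 9.37 and 9.58, against 10.07, 9.88, 10.01, 9.76 and 10.22 in balanced D2 livers, without overlap (log2 -0.44, adjusted p = 0.0109). Within the 3 scan days this was -0.20, -0.51 and -0.61, and in deficient B6 livers the difference was 0.07. Abcf2, of a family of ABC proteins that act in translation and carry no membrane span, was 0.15 higher over both strains (adjusted p = 0.0457), a second probe gave 0.03, and leaving out 1 mouse at a time ended the call in 18 of 30 cases. For the mitochondrial genes the deficient differences were 0.02 for Abcb6, 0.11 for Abcb8 and -0.15 for Abcb10 over both strains, and 0 of the 4 passed.

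Averaged over diets, D2 livers differed from B6 livers in 25 of 44 transporter genes, 7 higher and 18 lower, against 50.1% of all tested genes, 25.9% higher and 24.2% lower. The share lies near that of all genes. The split was 8 higher and 19 lower with 75th percentile scaling and 3 higher and 26 lower without normalization, which moved the median of all genes by -0.17. The median difference of the transporter genes was -0.16, against -0.01 for all tested genes. Of the 9 tested drug and conjugate exporters 6 were lower in D2 and 0 higher. These were Abcc2, Abcc6 (log2 -0.50), Abcc1 (log2 -0.37), Abcc3 (log2 -0.36), Abcc5 (log2 -0.24) and Abcb1b (log2 -0.20). The call of Abcc5 ended with the mean of its probes (log2 -0.11, adjusted p = 0.109). That of Abcb1b ended with 75th percentile scaling (log2 -0.17, adjusted p = 0.0507).

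Abca3, known as the lipid transporter of lung surfactant bodies, had the largest excess in D2 of the 44 tested genes. On the deficient diet it had 13.57, 12.94, 13.18, 13.08 and 13.65 in D2 livers, against 11.99, 11.74, 12.21, 11.85 and 11.84 in B6 livers. It had 13.65, 13.54, 13.78, 13.44 and 13.81 in balanced D2 livers, against 11.63, 12.03, 12.002, 11.79 and 12.15 in balanced B6 livers. On the enriched diet it had 13.90, 13.59, 13.47, 12.62 and 13.20 in D2 livers, against 12.18, 12.10, 12.12, 11.75 and 12.13 in B6 livers. The strains overlapped on none of the 3 diets. The difference was 2.75-fold (log2 1.46, SE 0.099, adjusted p = 1.05e-12), 1.60 and 1.68 within days 2 and 3, and its other 2 kept probes gave 1.37 and 0.84 and passed.

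Abcc6, whose activity in liver supplies blood with the mineralization inhibitor pyrophosphate, had 10.35, 10.09, 10.09, 10.20 and 9.88 in balanced D2 livers, against 10.57, 10.55, 10.72, 10.59 and 10.51 in balanced B6 livers. Over the 3 diets all 15 D2 mice lay below the B6 mean of their diet (log2 -0.50, SE 0.056, adjusted p = 1.65e-08), and the within-day values were -0.52 and -0.65. No diet difference of Abcc6 passed, with adjusted p from 0.122 to 1 within strains. Abcg3, a relative of Abcg2 found in rodents, was lower in D2 (log2 -0.77, adjusted p = 2.76e-07) at signals from 5.20 to 6.98.

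The 4 ABC proteins of translation were all lower in D2, by small amounts, against 24.2% of all tested genes. Abce1, which splits ribosomes after termination, had 11.92, 12.11, 11.98, 12.01 and 11.56 in balanced D2 livers, against 12.18, 12.15, 12.13, 12.23 and 12.31 in balanced B6 livers, and differed by -0.36 over the diets (adjusted p = 6.79e-07), -0.21 and -0.50 within days 2 and 3. Abcf2 differed by -0.21, Abcf3 by -0.17 and Abcf1 by -0.15, and a second Abcf3 probe gave -0.02. The call of Abcf1 ended with 75th percentile scaling (log2 -0.10, adjusted p = 0.219). That of Abcf3 ended with the mean of its probes (adjusted p = 0.109). The mitochondrial Abcb10 and Abcb8 were 0.39 and 0.15 higher in D2, the second Abcb10 probe gave 0.06, and Abcb8 differed by -0.01 within day 2. The call of Abcb8 ended with the slide as a block (adjusted p = 0.0581), the scan day as a block (adjusted p = 0.0732), normexp background correction (adjusted p = 0.0557) and no normalization (adjusted p = 0.517), and passed under 5 of 11 other settings. Abcb9 was 0.27 higher. Abcb4, Abca5 and Abcb1b were 0.22, 0.23 and 0.20 lower, and of the 4 Abca5 probes only the one used passed.

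Of the other cells of the liver, 9 of 9 Kupffer cell markers and 9 of 10 sinusoidal endothelial markers were lower in D2. The Kupffer sums were 14.94 to 15.18 in balanced D2 livers, against 15.57 to 16.69 in balanced B6 livers, and the endothelial sums 14.65 to 14.79 in balanced D2 livers, against 14.84 to 15.18 in balanced B6 livers. Of 7 cholangiocyte markers 4 were lower and 1 higher, with sums of 11.82 to 12.45 in balanced D2 livers, against 12.23 to 13.10 in balanced B6 livers. Of 8 stellate markers 2 were lower and 1 higher, of 4 tested erythroid markers 2 were higher, and of 8 lymphocyte markers 2 were higher. Of 10 male-biased genes 8 were higher in D2, and of 10 female-biased genes 8 were lower and 1 higher. Among 7 tested hepatocyte markers 2 were higher and 3 lower in D2, with a median of -0.06. Hepatocyte sums, in which the most abundant markers weigh most, were 20.27 to 20.46 in balanced D2 livers, against 20.47 to 20.60 in balanced B6 livers. Their part in the transporter differences was not tested.

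**Figure D4:**
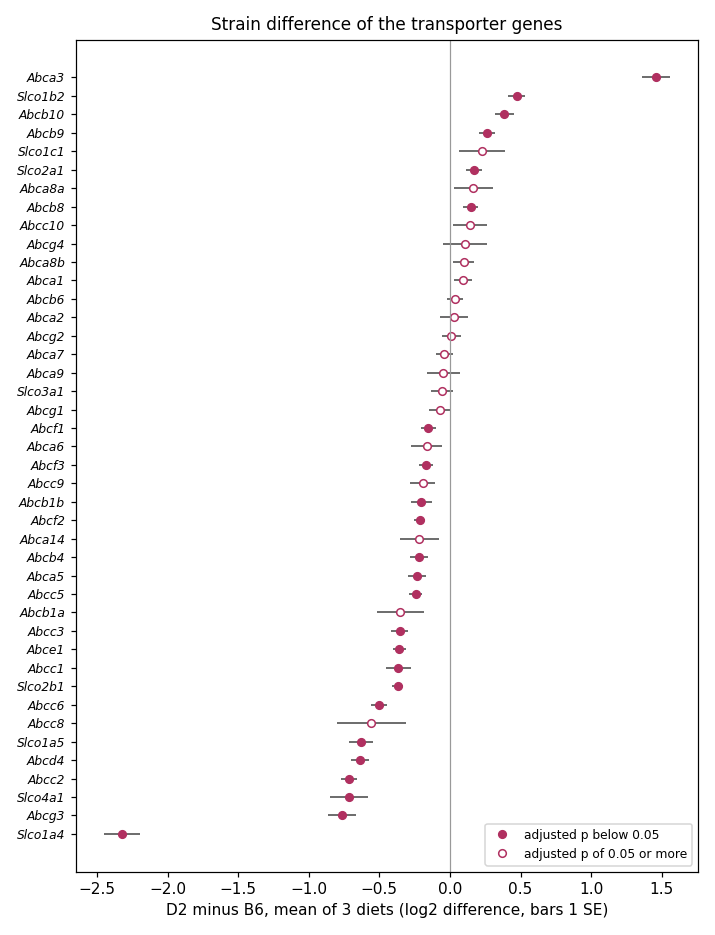
Difference between D2 and B6 livers for 42 of the 44 tested transporter genes, averaged over 3 diets, on a log2 scale with bars of 1 SE and filled points for an adjusted p below 0.05. Of the 24 filled points 18 lie left of 0 (lower in D2), with Slco1a4 at -2.32, and 6 lie right of it, with Abca3 at 1.46.

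Other carriers and the regulators known to act on transporters were read in the same fits, from lists chosen by name. Of 17 tested hepatocyte solute carriers and flippases of other families, 2 rose and 3 fell on the deficient diet over both strains. Among these Slc22a5, the carnitine carrier (log2 0.50), was higher, and Slc22a7, an organic anion carrier (log2 -0.88), Slc22a18 (log2 -0.25) and the urate carrier Slc2a9 (log2 -0.29) were lower. In enriched B6 livers 2 were called, both lower, among them Slc17a3 (log2 -0.50). Of 16 nuclear receptors and related factors 2 rose on the deficient diet, Nr1i3 (log2 0.28) and Keap1 (log2 0.30), 0 were called on the enriched diet over both strains, and in enriched B6 livers Nfe2l2 was higher (log2 0.34, adjusted p = 0.0406). In D2 livers, against B6 livers, 6 of the 16 factors were higher and 4 lower, among them Nr1i3 (0.48 higher) and Nr1i2 (0.42 lower). Of the 17 carriers and flippases 10 were higher and 3 lower in D2, with a median of 0.14. Over all tested genes 25.9% were higher and 24.2% lower in D2, with a median of -0.01. Nr0b2, the bile acid repressor SHP, was lower in deficient D2 livers (log2 -1.78). The peptide transporters Tap1 and Tap2, ABC genes of other names, were higher in D2 (log2 1.61 and 0.19) and did not pass on either diet.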

How the data were processed

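Liver RNA of 30 mice was read on single-colour 4x44K mouse arrays, 1 mouse per array, in 6 groups of 5. The authors deposited spot intensity as linear fluorescence, background-subtracted and not normalized between arrays, read with Agilent Feature Extraction 9.1.3.1 per the file headers (9.5.1 per the series text). The deposited series table holds the same intensity (largest difference 0). Control and outlier-marked spots were left out and spots of a probe averaged. Signals were quantile normalized, raised to a floor of 13.9 and put on the log2 scale. Probes were kept when well above background (over 5 times the additive error) on at least 3 B6 and 3 D2 arrays. The probe of highest mean stood for a gene. Gene names were updated from RefSeq, and the files name no genome build.

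limma 3.58.1 (R 4.3.3, with Python 3.11.15) fitted 6 group means on 30 arrays, with 9 contrasts and Benjamini-Hochberg adjustment over 21071 genes at 0.05. The script was tested on simulated data. R/maanova, which the series' text names, was not run, and limma took its place. The test called the methods' t-test here used the same fit of 6 group means with each gene's own spread, without limma's moderation. Genes called in any contrast were named, as were the mitochondrial ABC genes and the main hepatocyte transporters whatever they did (32 genes), and other genes for their presence in a list. Some genes are counted but not reported here by name. The members and lists were chosen with earlier results of these data known. Replicate numbers follow accession order and pair no mice. Alternatives were scaling to the 75th percentile, no normalization, normexp, other filters, the mean of kept probes, the compared groups alone, slide or scan day as a block, single scan days, the methods' t-test and leaving out each mouse.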

Additional observations from a re-analysis of the deposited data

Results flagged for a closer look

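Within groups of 5 mice, 1 mouse stood apart from the other 4 for 8 of the 192 combinations of named gene and group checked by Dixon's test at its 95% critical value of 0.71, a test that by chance marks about 1 in 20 groups. In deficient D2 livers Abca1 was 13.54 in mouse 2 (13.98 to 14.09 in the others), Abca5 7.76 in mouse 3 (8.06 to 8.16), Abcb9 9.37 in mouse 4 (9.57 to 9.64) and Abcc5 8.67 in mouse 5 (8.502 to 8.54). In enriched D2 livers Abcb1a was 7.09 in mouse 5 (6.01 to 6.19). In enriched B6 livers Abca3 was 11.75 in mouse 4 (12.10 to 12.18), Abcb4 16.79 in mouse 5 (16.47 to 16.56) and Abcd4 12.89 in mouse 3 (12.18 to 12.34). The enrichment effect differed between the strains (D2 minus B6) for Abcd4 by -0.76 and for Slco1a4 by -1.31, both by limma's interaction contrast.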

How the results depend on the processing

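No paired analysis was possible because the replicate numbers follow accession order and pair no mice. Counts of called transporter genes moved by over 1.5 times as follows, and the cause was not tested. Without normalization between arrays, enrichment called 3 over both strains and 7 in B6, deficiency in D2 called 3, and the difference of enrichment effects 4. Normexp background correction gave 5 for that difference, and scan day as a block 4. With no filter on dim probes, or the slide as a block, deficiency in B6 called 1, and the slide block left 3 for enrichment over both strains. With the compared groups alone, which leaves fewer arrays, enrichment in B6 called 6, deficiency in B6 0 and deficiency in D2 2. Within scan day 1 deficiency in D2 called 0, from 1 array against 1, which says nothing about stability. Within day 2, with 11 arrays, enrichment over both strains and in B6, deficiency over both strains, in B6 and in D2, and the difference of enrichment effects called 0 each, and strain 14. Within day 3 the counts were 3 for deficiency over both strains and in D2, 0 for deficiency in B6, 5 for enrichment in B6, 3 for enrichment in D2 and 1 for the difference of enrichment effects. The median of all genes moved by over 0.1 only without normalization, by -0.16 for enrichment in D2, 0.10 for deficiency in B6, -0.17 for strain and -0.22 for the difference of enrichment effects.

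Leaving out 1 mouse at a time gave 5 to 8 for enrichment over both strains, 5 to 9 for deficiency over both strains, 9 to 11 for enrichment in B6, 0 for enrichment in D2, 1 to 2 for deficiency in B6, 3 to 8 for deficiency in D2, 25 to 27 for strain, 1 to 4 for the difference of enrichment effects and 0 for that of deficiency effects. Deficiency in D2 called 3 when D2 deficient mouse 1 or D2 balanced mouse 5 was left out. Deficiency in B6 fell to 1 without B6 deficient mouse 1, 2, 3 or 4 or B6 balanced mouse 2, 4 or 5. The difference of enrichment effects had 1 call without D2 enriched mouse 2, 3 or 4, D2 balanced mouse 1 or 4, B6 enriched mouse 1, 4 or 5, or B6 balanced mouse 4, and 4 without D2 balanced mouse 5 or B6 deficient mouse 1 or 3. Of the calls of the genes named here, 2 changed sign in any alternative run, both within scan day 2: Abcb10 for enrichment in B6 (0.081), and Abcb8 for strain (-0.0087).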
